A study of Saccharomyces cerevisiae with 14 samples.

Results

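The comparison described here sets budding yeast (Saccharomyces cerevisiae) held with ethanol for 2 h against untreated cells of the same genotype at 0 h, across all genes measured. Its members were chosen by their sample labels: 2 libraries of ethanol at 2 h and 2 untreated libraries, 4 of the 14 libraries in the series. The other 10 are ethanol at 1 and 4 h and 5 nM beta-estradiol at 1, 2 and 4 h, with 2 libraries each. Every group carries the genotype label Z3EVpr-SWI4, in which a promoter answering to an estradiol-activated factor drives SWI4, so no group lacks that construct. Ethanol is the solvent of the estradiol and served as the mock induction; its amount is not stated in the labels. All cells grew in synthetic complete medium with 2% glucose. The untreated samples carry the time label 0 h, so the solvent and the time spent in culture cannot be told apart. Times, the 0 h of untreated cells included, were taken from the sample labels; the treatment protocol mentions 1 h alone.

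Yeast ferments glucose while the sugar is plentiful. In that state the repressor Mig1 and the regulators around it keep genes for alternative hexose kinases, high-affinity hexose transport and respiration low, and rapid growth keeps the genes for ribosome assembly high. As glucose runs down, these genes move in opposite directions, reserve carbohydrates such as glycogen begin to accumulate, and the transcription factors Msn2 and Msn4 raise a broad set of stress genes through an element with the core AGGGG. These facts are background from other work and were not measured here.

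The ethanol 2 h libraries held 3.47 M and 5.70 M counts, and the untreated libraries 12.3 M and 17.3 M, so depth moved with the groups. Correlations within a pair of log2 CPM, a gene's count scaled to a common library total, were 0.983 for ethanol at 2 h and 0.993 for untreated cells. The 10 most abundant genes took 11.8% and 17.5% of the ethanol 2 h counts, against 13.3% and 11.1% of the untreated counts. Among the other groups, replicate 1 of ethanol at 1 h and replicate 2 of estradiol at 2 h stood apart. Their scaling factors were 0.715 and 0.708, and their within-pair correlations 0.963 and 0.957. In that estradiol library the 10 most abundant genes took 23.3% of the counts. Levels below are CPM scaled by TMM factors. They are relative to each library, so less RNA per cell and fewer cells with the RNA cannot be told apart.

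The cells had the transcripts of a mating type a culture at both times. All 7 a-specific genes tested were present, among them the pheromone receptor gene STE2 at 730 and 853 CPM in ethanol 2 h libraries and 902 and 745 CPM in untreated libraries. The alpha-specific gene STE3 stood at 5.05 and 3.63 CPM in ethanol 2 h libraries and 2.67 and 3.62 CPM in untreated libraries. All 3 alpha-specific genes tested summed to 24.0 and 25.8 CPM in ethanol 2 h libraries and 23.5 CPM in each untreated library. The a-specific genes summed to 1380 and 1530 CPM in ethanol 2 h libraries and 1575 and 1400 CPM in untreated libraries. The meiosis and sporulation list summed to 110 and 117 CPM in ethanol 2 h libraries, against 99.8 and 108 CPM in untreated libraries. None of the genes in these lists passed the test below (edgeR, with 0 of the 24 tested at an unadjusted p under 0.05; DESeq2 called 0 as well).

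At 2 h of ethanol 3 genes rose and 0 fell among 6337 tested, which is 0.0473% of them. The genes were HXK1, a glucose-repressed hexokinase, GSY2, the main glycogen synthase, and YBR032W, a reading frame of no known role. The test was edgeR's quasi-likelihood test on all 14 libraries, with p-values adjusted over all genes by the Benjamini-Hochberg method and a threshold of 0.05. At an unadjusted p under 0.05 there were 266 genes higher (4.2% of those tested) and 108 lower (1.7%), 5.9% in all. Both ethanol 2 h libraries lay above both untreated libraries for 22.3% of genes and below both for 22.5%. The median log2 fold change of all genes was -0.01, and a typical standard error (SE) was 0.27. Nothing in the labels says that replicates came from separate cultures, so p-values measure only the spread between these samples.

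**Figure D1:**
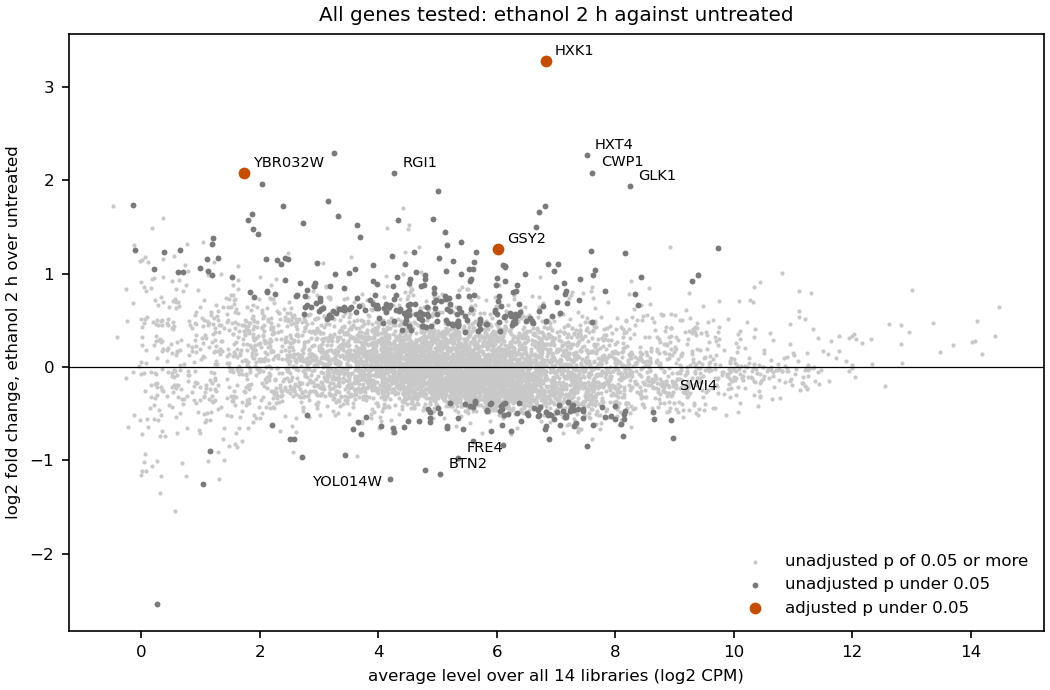
Each point is a gene, with its average level over all 14 libraries (log2 CPM) on the x axis and its log2 fold change, ethanol 2 h over untreated, on the y axis. The 3 orange points are HXK1, GSY2 and YBR032W, all above 0; the dark grey points, at an unadjusted p under 0.05, are more numerous above 0 (266 less the 3) than below it (108).

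The number of calls differed between fits. Fitted to the 4 libraries alone, with 2 residual degrees of freedom in place of 7, the same test called 209 genes higher and 46 lower, 3.34% and 0.735% of the 6259 genes it tested and 4.07% in all. DESeq2 on all 14 libraries called 36 higher and 4 lower of the 6670 genes it tested. A fit with 1 surrogate variable called 121 higher and 40 lower of 6337. HXK1, GSY2 and YBR032W were among the calls of each of these fits. Counts of calls from the 4-library fit are also given below.

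HXK1 (YFR053C) stood at 46.4 and 72.3 CPM in ethanol 2 h libraries, against 6.88 and 5.41 CPM in untreated libraries. Both ethanol libraries were far above both untreated ones. The log2 fold change was 3.28 (SE 0.40, n = 2 each, adjusted p = 0.0232, edgeR). GSY2 (YLR258W) had 57.8 and 54.9 CPM in ethanol 2 h libraries and 23.1 and 23.8 CPM in untreated libraries. Within each group its 2 values nearly coincided, and the log2 fold change was 1.26 (SE 0.18, adjusted p = 0.0335, edgeR). YBR032W had 3.79 and 4.40 CPM in ethanol 2 h libraries and 1.13 and 0.840 CPM in untreated libraries, a log2 fold change of 2.08 (SE 0.30, adjusted p = 0.0335, edgeR). These levels rest on few reads, 15 and 23 counts in ethanol 2 h libraries and 14 and 16 counts in the deeper untreated libraries. YBR032W lies 122 bases from EDS1 on the same strand in the R64 annotation. EDS1 itself had 11.9 and 13.4 CPM in ethanol 2 h libraries and 12.9 and 10.5 CPM in untreated libraries, which overlap.

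The 3 calls were lost when any of 5 libraries was left out. Leaving out ethanol 2 h replicate 1 or 2 gave HXK1 an adjusted p of 0.0547 and 0.361 in edgeR. Leaving out untreated replicate 1 or 2 gave 0.217 and 0.931, and leaving out ethanol 1 h replicate 1, which is in neither group, gave 0.0619. GSY2 and YBR032W likewise missed the threshold in each of these 5 fits. The log2 fold changes moved less, between 2.92 and 3.57 for HXK1, 1.24 and 1.30 for GSY2, and 1.84 and 2.29 for YBR032W. With the 4 libraries thinned to 3.47 M counts each, HXK1 alone was called, at 3.21 (adjusted p = 0.0486, edgeR). YBR032W moved to 3.36 in the thinned counts and was not called (adjusted p = 0.247, edgeR).

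The stretches upstream of 5 of the genes named as highest are shown because they hold the short motifs of the regulators named above. They come from the R64 genome, in 5′ to 3′ order toward the start codon. Capitals mark AGGGG or its complement CCCCT (the stress element), CCCCGC or its complement (the core of a Mig1 site) and, in HXT4 alone, CGGANNA (the core of an Rgt1 site, a repressor of hexose transporter genes). The 500 bases before each start codon were searched on both strands, and the stretch printed is the part with the matches.
HXK1, R64 chrVI:255380-255549, minus strand: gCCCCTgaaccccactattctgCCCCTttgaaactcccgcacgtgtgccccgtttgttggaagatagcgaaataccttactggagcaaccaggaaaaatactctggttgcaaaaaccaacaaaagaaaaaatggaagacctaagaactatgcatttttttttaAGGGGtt
GSY2, R64 chrXII:660336-660525, plus strand: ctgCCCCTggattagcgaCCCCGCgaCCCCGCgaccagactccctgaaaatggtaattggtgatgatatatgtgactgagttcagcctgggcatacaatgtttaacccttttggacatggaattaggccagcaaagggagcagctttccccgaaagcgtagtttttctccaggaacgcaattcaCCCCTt
GLK1, R64 chrIII:50608-50677, plus strand: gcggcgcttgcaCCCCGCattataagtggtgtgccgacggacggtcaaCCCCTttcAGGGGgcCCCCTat
RGI1, R64 chrV:291651-291860, plus strand: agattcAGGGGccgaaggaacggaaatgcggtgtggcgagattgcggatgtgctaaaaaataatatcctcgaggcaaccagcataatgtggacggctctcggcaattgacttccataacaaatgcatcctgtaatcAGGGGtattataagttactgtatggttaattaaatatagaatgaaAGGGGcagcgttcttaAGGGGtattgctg
HXT4, R64 chrVIII:289097-289281, minus strand: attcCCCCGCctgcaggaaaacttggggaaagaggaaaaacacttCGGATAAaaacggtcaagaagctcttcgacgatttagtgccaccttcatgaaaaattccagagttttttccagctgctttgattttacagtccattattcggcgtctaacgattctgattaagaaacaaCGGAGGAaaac
Letters of this kind are a description and not a measured binding site. AGGGG occurred in 34.0% of the windows of 5791 genes tested, in 54.5% of the 246 windows of genes higher at an unadjusted p under 0.05 and in 25.5% of the 98 windows of genes lower. CCCCGC occurred in 5.75% of all windows, in 18.7% of those of the higher genes and in 2.04% of those of the lower genes. CGGANNA is common, in 42.1% of all windows, 54.1% of those of the higher genes and 42.9% of those of the lower genes. The GLK1 stretch lies inside YCL042W, a reading frame that overlaps the start of GLK1.

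The 12 genes named as highest held 3 hexose transporter genes and 1 further sugar kinase gene. Called genes were placed first among the 12 and the largest other changes after them. GSY2, at 1.26, has its place by its call, and some larger changes that were not called lie outside the 12. HXT4, a glucose transporter gene of the hexose transporter family, had 106 and 158 CPM in ethanol 2 h libraries and 31.3 and 23.3 CPM in untreated libraries (log2 fold change 2.27, SE 0.42). Its adjusted p in edgeR was 0.121, and it passed only when libraries were scaled by their totals, in the 4-library fit, in DESeq2 and with the surrogate variable. HXT7, a high-affinity transporter gene, had 67.9 and 92.8 CPM in ethanol 2 h libraries and 28.2 and 20.5 CPM in untreated libraries (1.73, SE 0.47). HXT6 is nearly identical to HXT7, so reads may be split between them, and its values were alike at 69.9 and 90.1 CPM in ethanol 2 h libraries and 28.5 and 22.3 CPM in untreated libraries. GLK1, encoding glucokinase, had 125 and 254 CPM in ethanol 2 h libraries and 55.9 and 42.7 CPM in untreated libraries (1.94, SE 0.73). The 2 ethanol values of GLK1 lay far apart, though both were above both untreated values. YCL042W, which shares 106 bases with GLK1 on the same strand, stood with it at 11.6 and 28.5 CPM in ethanol 2 h libraries and 6.15 and 4.88 CPM in untreated libraries.

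Of the 18 hexose transporter and glucose-sensing genes tested, 0 were called by edgeR on all libraries, 6 were higher at an unadjusted p under 0.05, and 6 were called higher in the 4-library fit. DESeq2 called 2. Both ethanol libraries were above both untreated ones for 11 of them and below for 1, and the list's median log2 fold change was 0.47. These are 61.1% and 5.56%, against 22.3% and 22.5% of all genes. Of all genes, edgeR had 4.2% higher at an unadjusted p under 0.05, and the 4-library fit called 3.34% higher. The low-affinity transporter genes were less separated than HXT4: HXT3 had 1156 and 1500 CPM in ethanol 2 h libraries and 811 and 650 CPM in untreated libraries (0.86, SE 0.45). HXT1 had 395 and 676 CPM in ethanol 2 h libraries and 420 and 349 CPM in untreated libraries, and the groups overlapped. MTH1, a regulator that acts with Rgt1, stood at 26.8 and 35.0 CPM in ethanol 2 h libraries and 16.3 and 14.2 CPM in untreated libraries (1.03, SE 0.23).

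The 26 glucose-repressed and gluconeogenic genes held 1 called gene, HXK1, and 6 that were higher at an unadjusted p under 0.05. The 4-library fit called 5 of the list, against 3.34% of all genes called higher. The median of the 26 genes was 0.39, and 14 lay higher without overlap and 4 lower. These are 53.8% and 15.4%, against 22.3% and 22.5% of all genes. EMI2, a relative of the glucose kinases, stood at 70.7 and 97.3 CPM in ethanol 2 h libraries and 46.0 and 36.4 CPM in untreated libraries (1.03, SE 0.43). Values for 3 further members of this list, ADH2, PCK1 and ICL1, were as follows. ADH2, the alcohol dehydrogenase that consumes ethanol, had 546 and 1059 CPM in ethanol 2 h libraries and 595 and 523 CPM in untreated libraries, which overlap (0.52, SE 0.61; -0.034 without ethanol 2 h replicate 2). PCK1, a gluconeogenic enzyme gene, had 4.80 and 4.78 CPM in ethanol 2 h libraries and 4.45 and 5.30 CPM in untreated libraries. ICL1, of the glyoxylate cycle, had 24.0 and 25.1 CPM in ethanol 2 h libraries and 21.5 and 19.5 CPM in untreated libraries (0.26, SE 0.21).

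The remaining genes of the 12 highest were of several kinds, and edgeR on all libraries called none of them; with the replicate block it called YER067C-A (2.31, adjusted p = 0.0242). RGI1, a gene tied to energy metabolism under respiratory growth, had 11.9 and 18.7 CPM in ethanol 2 h libraries and 3.72 and 3.57 CPM in untreated libraries (2.08, SE 0.40). YER067C-A, an identifier that by its name lies beside RGI1 on the opposite strand, followed it at 6.81 and 9.18 CPM in ethanol 2 h libraries and 1.38 and 1.84 CPM in untreated libraries. The sources do not state a strand setting for the counting, so the pair cannot be told apart. YFR052C-A by its name lies beside HXK1 on the same strand. It is not in the R64 annotation, so whether it shares bases with HXK1 was not determined, and this pair was not told apart either. YFR052C-A stood at 2.52 and 4.78 CPM in ethanol 2 h libraries and 1.05 and 1.10 CPM in untreated libraries. CWP1, a cell wall mannoprotein gene, had 46.4 and 78.6 CPM in ethanol 2 h libraries and 14.8 CPM in each untreated library (2.08, SE 0.58). ECM13 had 14.4 and 14.9 CPM in ethanol 2 h libraries and 4.37 and 5.09 CPM in untreated libraries (1.62, SE 0.32). All 12 were called in the 4-library fit and 7 of them by DESeq2. The 12 were chosen by their values in these same libraries, so those calls are no separate support.

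**Figure D2:**
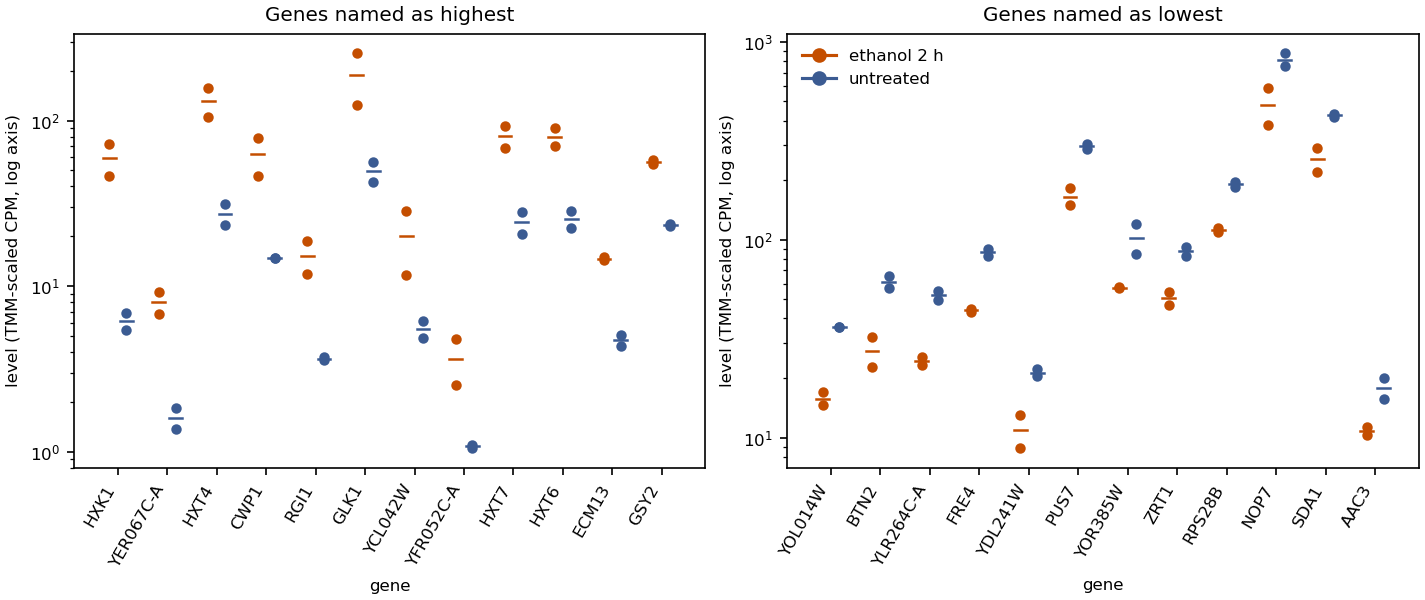
Level in each library (TMM-scaled CPM, log axis) of the 12 genes named as highest, left panel, and the 12 named as lowest, right panel. Called genes were placed first in the naming. Ethanol 2 h is in orange left of untreated in blue, points are libraries and the bar is the mean of 2. The groups do not overlap for any of the 24 genes, which the naming rule required, and the gap is widest for HXK1 (46.4 and 72.3 against 6.88 and 5.41 CPM).

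Genes of the tricarboxylic acid (TCA) cycle, which oxidises acetyl units in the mitochondrion, lay higher as a list. All 18 had a positive log2 fold change, 16 had both ethanol libraries above both untreated ones, and the median was 0.62. The 16 are 88.9% of the list, against 22.3% of all genes. On all libraries edgeR called 0 of them, with 8 at an unadjusted p under 0.05, against 4.2% of all genes higher at that p. The 4-library fit called 8, against 3.34% of all genes called higher, and DESeq2 called 2. IDH1, a subunit of isocitrate dehydrogenase, had 286 and 326 CPM in ethanol 2 h libraries and 139 and 124 CPM in untreated libraries (1.22, SE 0.28, adjusted p = 0.264). CIT1, the mitochondrial citrate synthase, had 181 and 190 CPM in ethanol 2 h libraries and 96.9 and 95.3 CPM in untreated libraries (0.95, SE 0.18, adjusted p = 0.121). The members with the smallest differences were KGD1, LPD1 and IDP1, at 0.12, 0.17 and 0.19. KGD1 and LPD1 encode subunits of the 2-oxoglutarate dehydrogenase complex.

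The 34 genes of the respiratory chain and ATP synthase likewise all had positive values, with a median of 0.42 and 29 without overlap. The 29 are 85.3% of the list, against 22.3% of all genes. edgeR on all libraries called 0, with 12 at an unadjusted p under 0.05, against 4.2% of all genes higher at that p. The 4-library fit called 6, against 3.34% of all genes called higher, and DESeq2 called 1. HAP4, the regulated subunit of the activator of these genes, stood at 127 and 134 CPM in ethanol 2 h libraries and 51.2 and 70.1 CPM in untreated libraries (1.10, SE 0.31). CYC1, encoding cytochrome c, had 208 and 269 CPM in ethanol 2 h libraries and 135 and 143 CPM in untreated libraries (0.78, SE 0.31). NDI1, the internal NADH dehydrogenase, had 66.9 and 83.4 CPM in ethanol 2 h libraries and 46.4 and 40.1 CPM in untreated libraries (0.80, SE 0.27). The genes for the mitochondrial ribosome gave a smaller shift, with a median of 0.35, 42 of 43 positive and 31 without overlap. The 31 are 72.1% of that list, against 22.3% of all genes. edgeR on all libraries called 0 of these, with 7 at an unadjusted p under 0.05; the 4-library fit called 1 and DESeq2 called 0.

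Of the 21 glycogen and trehalose genes, GSY2 was the 1 that edgeR called on all libraries; 17 had positive values, 12 were higher without overlap and 0 lower, and the median was 0.40. The 12 are 57.1% of the list, against 22.3% of all genes. The 4-library fit called 7, against 3.34% of all genes called higher. The values of 3 members that were not called follow. GPH1, glycogen phosphorylase, had 20.9 and 28.5 CPM in ethanol 2 h libraries and 10.3 and 7.98 CPM in untreated libraries (1.45, SE 0.35). GSY1, the second glycogen synthase, had 19.9 and 23.9 CPM in ethanol 2 h libraries and 11.97 and 10.2 CPM in untreated libraries (0.99, SE 0.31). TSL1, a subunit of the trehalose synthase complex, had 35.6 and 43.6 CPM in ethanol 2 h libraries and 19.5 and 18.1 CPM in untreated libraries (1.08, SE 0.33). In each of these the ethanol libraries were above the untreated ones.

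Among the 23 general stress effector genes tested, 19 were higher without overlap, 1 was lower, and the median was 0.58. These are 82.6% and 4.35%, against 22.3% and 22.5% of all genes. Of all genes, edgeR had 4.2% higher and 1.7% lower at an unadjusted p under 0.05. The 4-library fit called 3.34% and 0.735% of all genes. On all libraries edgeR called 0 of them, with 8 higher and 1 lower at an unadjusted p under 0.05; the 4-library fit called 8 higher and 1 lower, and DESeq2 called 4 higher. YGP1, a secreted glycoprotein gene known for its response to nutrient limitation, had 49.5 and 62.9 CPM in ethanol 2 h libraries and 22.7 and 21.8 CPM in untreated libraries (1.34, SE 0.22, adjusted p = 0.102). PNC1, a nicotinamidase gene, had 160 and 186 CPM in ethanol 2 h libraries and 80.2 and 66.5 CPM in untreated libraries (1.24, SE 0.29). HSP12, the classic Msn2 target, was barely present: 5 and 4 counts in ethanol 2 h libraries and 5 and 4 counts in the deeper untreated libraries, or 1.26 and 0.765 CPM against 0.405 and 0.210 CPM. HSP42, a small heat shock protein gene, ran against the rest of the list at 38.1 and 36.7 CPM in ethanol 2 h libraries and 62.9 and 57.0 CPM in untreated libraries (-0.68, SE 0.28). AGGGG was found upstream of 82.6% of this list, against 34.0% of all windows. That share describes the list as written and not its change at 2 h.

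The 22 chaperone genes were divided, with 14 higher without overlap, 6 lower and a median of 0.31. The shares were 63.6% and 27.3%, against 22.3% and 22.5% of all genes. SSA1, a cytosolic Hsp70, had 1026.5 and 1622 CPM in ethanol 2 h libraries and 760 and 644 CPM in untreated libraries (0.92, SE 0.50). BTN2, which takes misfolded protein into deposits with its relative CUR1, had 22.7 and 32.3 CPM in ethanol 2 h libraries and 56.7 and 65.7 CPM in untreated libraries (-1.15, SE 0.42). CUR1 stood at 21.7 and 16.6 CPM in ethanol 2 h libraries and 25.3 and 28.8 CPM in untreated libraries (-0.51, SE 0.26). edgeR on all libraries called 0 of the list, with 2 higher and 1 lower at an unadjusted p under 0.05; DESeq2 called 1 higher, and the 4-library fit called 4 higher and, as the lower one, BTN2.

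**Figure D3:**
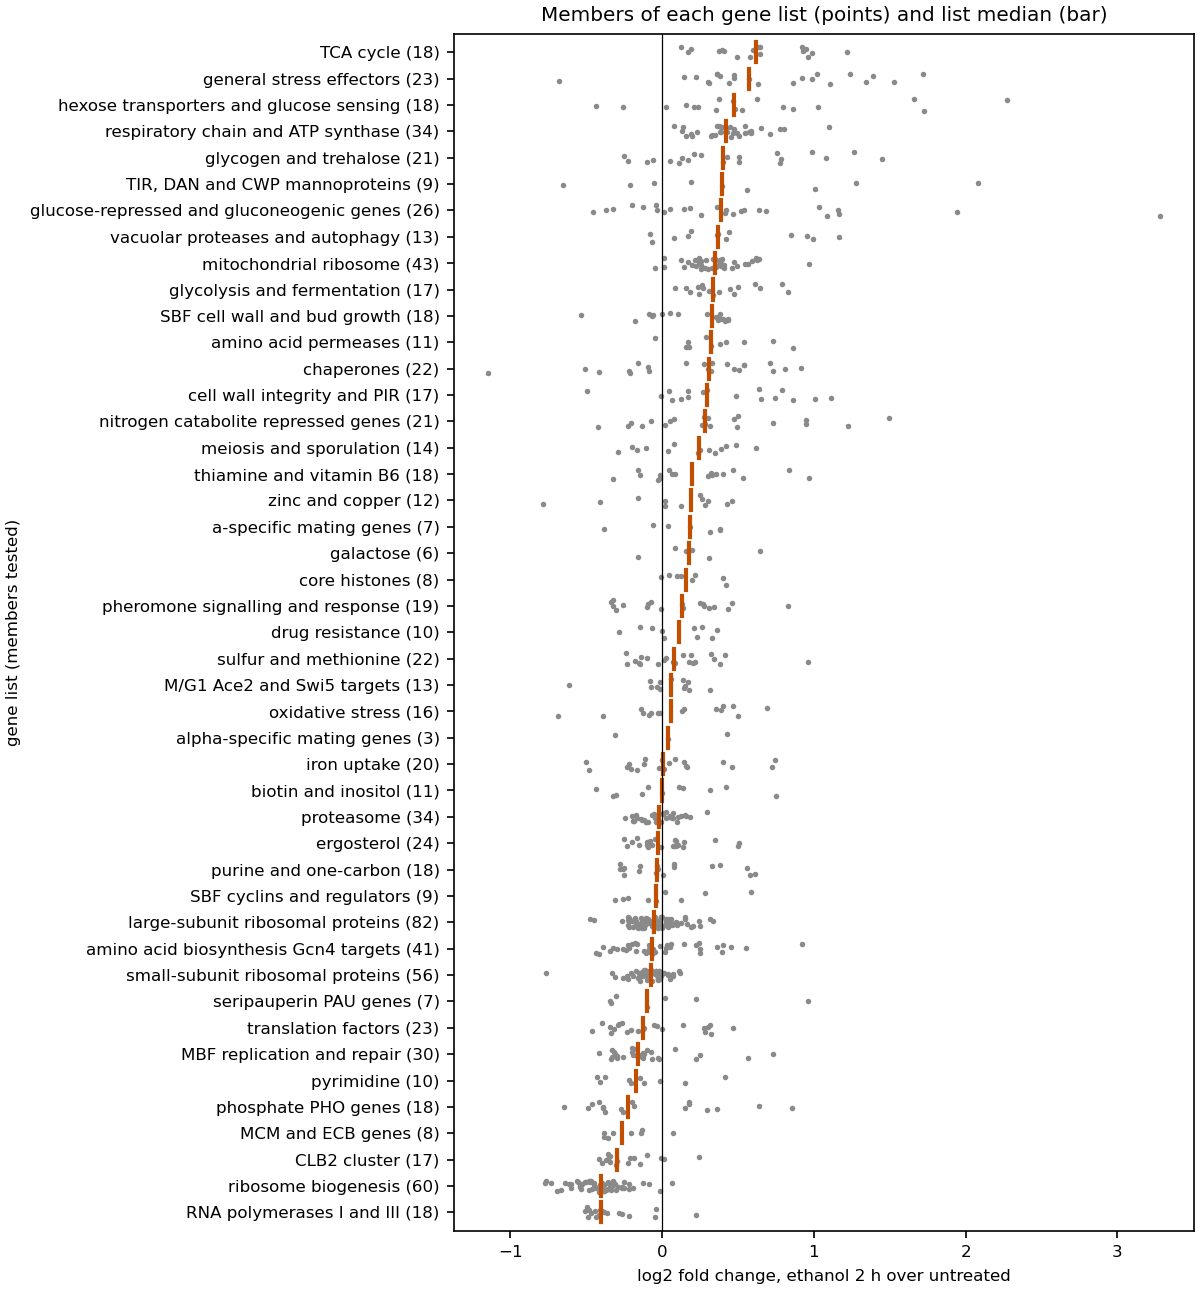
Log2 fold change, ethanol 2 h over untreated, of every tested member (grey points) of 45 gene lists, with the list's median as an orange bar and the number of members tested in brackets. The TCA cycle list is at the top with a median of 0.62, and ribosome biogenesis and RNA polymerases I and III are at the bottom with -0.40 each; the genes encoded in mitochondrial DNA are left out for their low counts.

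At the lower end, 0 genes were called by edgeR on all libraries; 108 were lower at an unadjusted p under 0.05, DESeq2 called 4 and the 4-library fit 46. YOL014W, a reading frame of no known role, had 16.9 and 14.5 CPM in ethanol 2 h libraries and 36.2 and 36.1 CPM in untreated libraries (-1.20, SE 0.21, adjusted p = 0.121). FRE4, a ferric reductase gene for siderophore iron, had 43.2 and 44.8 CPM in ethanol 2 h libraries and 90.3 and 83.0 CPM in untreated libraries (-0.98, SE 0.25). ZRT1, the high-affinity zinc transporter gene, had 46.7 and 54.3 CPM in ethanol 2 h libraries and 91.8 and 82.7 CPM in untreated libraries (-0.79, SE 0.36). Lists of related genes did not lie lower. The zinc and copper list, which holds ZRT1, had a median of 0.19 with 9 of 12 values positive. The iron uptake list, which does not hold FRE4, had a median of 0.004 with 10 of 20 positive. RPS28B, a small-subunit ribosomal protein gene, stood at 114 and 110 CPM in ethanol 2 h libraries and 196 and 186 CPM in untreated libraries (-0.77, SE 0.24). The small reading frame YLR264C-A next to it, on the opposite strand by its name, had 25.5 and 23.1 CPM in ethanol 2 h libraries and 55.3 and 49.3 CPM in untreated libraries, with the groups apart. The 2 reading frames do not overlap in the R64 annotation. As the strand setting is not stated, whether reads of RPS28B were counted for YLR264C-A was not determined. AAC3, the ADP/ATP carrier gene expressed at low oxygen, had 10.3 and 11.3 CPM in ethanol 2 h libraries and 20.1 and 15.6 CPM in untreated libraries (-0.72, SE 0.29). YDL241W and YOR385W, reading frames with no role given here, stood at -0.95 and -0.83. The 4-library fit called 11 of the 12 lowest and DESeq2 called 2. These 12 too were chosen by their values in the same libraries, so the calls are no separate support.

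Genes for building ribosomes lay lower as a list, by small amounts shared among nearly all members. Of 60 ribosome biogenesis genes, 53 had both ethanol libraries below both untreated ones and 0 had them above, with a median of -0.40. The 53 are 88.3% of the list, against 22.5% of all genes. edgeR on all libraries called 0, with 7 lower at an unadjusted p under 0.05, against 1.7% of all genes lower at that p. The 4-library fit called 9 lower, against 0.735% of all genes, and DESeq2 called 0. NOP7, needed for the maturation of large-subunit ribosomal RNA, had 582 and 378 CPM in ethanol 2 h libraries and 756 and 874 CPM in untreated libraries (-0.76, SE 0.34). SDA1, which acts in export of the large subunit, had 290 and 221 CPM in ethanol 2 h libraries and 417 and 433 CPM in untreated libraries (-0.73, SE 0.28). PUS7, a pseudouridine synthase gene that is outside the list, had 182 and 149 CPM in ethanol 2 h libraries and 289 and 303 CPM in untreated libraries (-0.84, SE 0.28). The list summed to 14869 and 12993 CPM in ethanol 2 h libraries and 17926 and 19347 CPM in untreated libraries. NOG1, at 0.07, was its only member above 0.

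The upstream stretches of these 3 genes are shown because they hold the motif pair typical of this group. Capitals mark GATGAG or its complement CTCATC, the PAC motif, and AAAATTT or its complement AAATTTT, the RRPE motif, which overlap each other in AAAATTTT.
NOP7, R64 chrVII:695272-695321, plus strand: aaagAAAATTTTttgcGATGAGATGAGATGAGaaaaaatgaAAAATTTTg
SDA1, R64 chrVII:982204-982233, minus strand: aatgAAAATTTTaaaCTCATCTCATCgcag
PUS7, R64 chrXV:792297-792356, minus strand: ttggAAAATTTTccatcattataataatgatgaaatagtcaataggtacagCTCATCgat
In NOP7 the PAC letters overlap themselves, with 3 matches in a row. PAC was found in 91.7% of the windows of the ribosome biogenesis list and RRPE in 96.7%, against 28.2% and 34.4% of all windows. Among the 98 windows of genes lower at an unadjusted p under 0.05 the shares were 51.0% and 61.2%, and among the 246 of higher genes 26.0% and 25.2%. The members of the list are part of these counts.

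The subunits of RNA polymerases I and III, which make ribosomal and transfer RNA, ran with ribosome assembly: the median was -0.40, and 15 of 18 were lower without overlap. The 15 are 83.3% of the list, against 22.5% of all genes. RPA135, the second-largest subunit of RNA polymerase I, had 649 and 561 CPM in ethanol 2 h libraries and 911 and 791 CPM in untreated libraries (-0.49, SE 0.31). edgeR called 0 of these, with 3 lower at an unadjusted p under 0.05, and neither DESeq2 nor the 4-library fit called any. Ribosomal protein genes, by contrast in their medians, lay near the median of all genes, at -0.07 over 56 small-subunit genes and -0.05 over 82 large-subunit genes. That difference between lists was not tested. edgeR called 0 genes of either list, with 1 small-subunit gene lower at an unadjusted p under 0.05; DESeq2 called 0, and the 4-library fit called 1 small-subunit gene lower. Of the small-subunit genes 10 were lower without overlap and 0 higher, and of the large-subunit genes 16 and 0. The lower shares were 17.9% and 19.5%, against 22.5% of all genes.

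Genes of glycolysis and fermentation had 17 of 17 values above 0 with a median of 0.34, but the ethanol replicates disagreed and the median ran between 0.037 and 0.58 over the settings tried. Their levels summed to 86744 and 142670 CPM in ethanol 2 h libraries and 92990 and 76563 CPM in untreated libraries, so the lower ethanol library lay between the untreated ones. Of the 17, 4 were higher without overlap, which is 23.5% against 22.3% of all genes. TDH3, glyceraldehyde-3-phosphate dehydrogenase, had 13629 and 26232 CPM in ethanol 2 h libraries and 14071 and 11461 CPM in untreated libraries (0.64, SE 0.67). edgeR called 0 of this list, with 0 at an unadjusted p under 0.05; DESeq2 called 0 and the 4-library fit 2. The ethanol library with the higher levels, replicate 2, is also the one whose 10 most abundant genes took 17.5% of counts, and the part of this in other results was not tested.

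SWI4 itself, the gene behind the inducible promoter, did not pass the test. It had 15.6 and 15.5 CPM in ethanol 2 h libraries and 17.9 and 20.7 CPM in untreated libraries (-0.31, SE 0.39, adjusted p = 0.942). The 9 SBF cyclins and regulators, targets of the factor that SWI4 encodes part of, had a median of -0.04 with 2 higher and 3 lower without overlap. These are 22.2% and 33.3% of the list, against 22.3% and 22.5% of all genes. edgeR called 0, with 1 at an unadjusted p under 0.05: PCL2, a cyclin of the Pho85 kinase, at 36.3 and 38.2 CPM in ethanol 2 h libraries and 24.8 and 24.9 CPM in untreated libraries (0.59). DESeq2 called 1 of the list and the 4-library fit 0. The G1 cyclin genes did not separate in a common direction: CLN1 had 50.7 and 49.7 CPM in ethanol 2 h libraries and 38.3 and 44.1 CPM in untreated libraries, and CLN2 98.4 and 74.0 CPM in ethanol 2 h libraries and 84.1 and 92.9 CPM in untreated libraries. CLN3, the upstream G1 cyclin, had 55.3 and 65.2 CPM in ethanol 2 h libraries and 57.2 and 57.3 CPM in untreated libraries. PCL1 stood at 13.1 and 10.1 CPM in ethanol 2 h libraries and 13.4 and 13.5 CPM in untreated libraries. MFA1, an a-factor pheromone gene, stood at 60.3 and 69.6 CPM in ethanol 2 h libraries and 65.4 and 61.0 CPM in untreated libraries. The mitotic CLB2 cluster had a median of -0.30, with 7 of 17 lower without overlap, which is 41.2% against 22.5% of all genes. In that cluster edgeR called 0, with 1 lower at an unadjusted p under 0.05, and neither DESeq2 nor the 4-library fit called any.

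Phosphate genes were mixed. Their median was -0.23, with 4 of 18 higher (22.2%) and 11 lower (61.1%) without overlap, against 22.3% and 22.5% of all genes. On all libraries edgeR called 0, with 1 each way at an unadjusted p under 0.05. DESeq2 called 0 and the 4-library fit 1 higher. PHO84, the high-affinity phosphate transporter gene, which shares 1764 bases with a transcript on the opposite strand, had 816 and 981 CPM in ethanol 2 h libraries and 817 and 770 CPM in untreated libraries (0.18, SE 0.37). PHO89, the sodium-coupled phosphate transporter gene, had 18.7 and 22.8 CPM in ethanol 2 h libraries and 29.9 and 35.0 CPM in untreated libraries (-0.65, SE 0.25).

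The other lists had no member called by edgeR on all libraries. The highest of their medians were 0.39 for the TIR, DAN and CWP mannoproteins of the cell wall, 0.37 for vacuolar proteases and autophagy, 0.33 for SBF targets of the cell wall and bud, 0.32 for amino acid permeases, 0.30 for cell wall integrity and 0.28 for nitrogen catabolite repressed genes. Over the settings tried, the mannoprotein median ran between -0.033 and 1.02, lowest without ethanol 2 h replicate 2, so its sign was not stable. The SBF cell wall and bud median ran between 0.023 and 0.34, also lowest without that library, and the permease median between 0.15 and 0.53. DESeq2 called 1 gene in the mannoprotein list and 0 in the other 5, and the 4-library fit called between 0 and 6 in each. At the lower side were genes of the MCM and ECB group at -0.27, pyrimidine synthesis at -0.17, MBF targets of replication and repair at -0.16 and translation factors at -0.13. Lists for biosynthesis lay near the median of all genes, with -0.07 for Gcn4 targets, -0.03 for purines, -0.03 for ergosterol and 0.08 for sulfur, as did the proteasome at -0.02 and oxidative stress at 0.06.

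The ethanol groups at the other times place these values. The comparisons of 1, 2 and 4 h with untreated cells share the untreated libraries, so their values are set side by side only. edgeR called 0 genes at 1 h (397, or 6.26%, at an unadjusted p under 0.05; DESeq2 called 22), the 3 genes described at 2 h, and 92 higher and 18 lower at 4 h, which is 1.45% and 0.284% of genes tested and 1.74% in all. HXK1 stood at 6.88 and 5.41 CPM in untreated cells, 37.0 and 31.97 CPM at 1 h, 46.4 and 72.3 CPM at 2 h and 175 and 266 CPM at 4 h, with log2 fold changes over untreated cells of 2.49, 3.28 and 5.17. GSY2 stood at 23.1 and 23.8 CPM in untreated cells, 37.8 and 35.5 CPM at 1 h, 57.8 and 54.9 CPM at 2 h and 93.5 and 106 CPM at 4 h. Each of these genes was higher at each time than at the one before, without overlap. RGI1 and YOL014W ran the same way in their means, upward and downward. NOP7 had 756 and 874 CPM in untreated cells, 439 and 536 CPM at 1 h, 582 and 378 CPM at 2 h and 403 and 337 CPM at 4 h, so its 1 h and 2 h values overlapped.

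YBR032W had another course. It had 1.13 and 0.840 CPM in untreated cells, 0.756 and 0.585 CPM at 1 h, 3.79 and 4.40 CPM at 2 h and 5.14 and 5.42 CPM at 4 h. The 1 h values come from 2 and 3 counts. The direct test of 2 h against 1 h gave it a log2 fold change of 2.65 (SE 0.42, adjusted p = 0.142, edgeR).

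**Figure D4:**
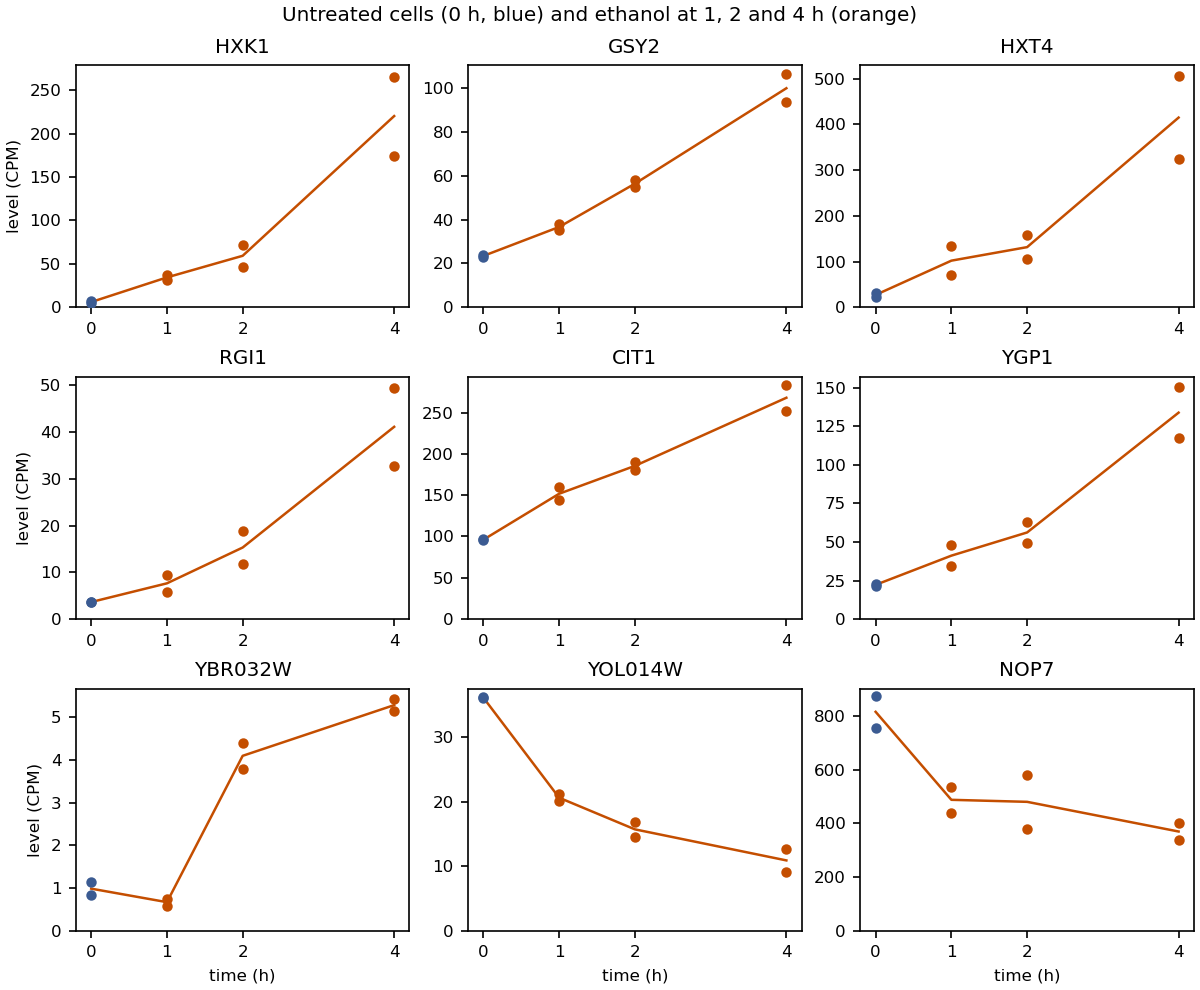
Level (TMM-scaled CPM, axis from 0) of 9 genes against time in hours; blue points are the 2 untreated libraries at 0 h, orange points the 2 ethanol libraries at 1, 2 and 4 h, and the line joins the means. HXK1 reached 175 and 266 CPM at 4 h, YBR032W was below 1 CPM at 1 h and near its 4 h level at 2 h, and NOP7 lay lower at every ethanol time than in untreated cells.

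Tested directly against the other ethanol times, no gene passed. edgeR called 0 genes for 2 h against 1 h (95, or 1.5%, at an unadjusted p under 0.05; DESeq2 called 1) and 0 genes for 4 h against 2 h (161, or 2.54%; DESeq2 called 8). The list medians over untreated cells give the course of whole groups. The general stress list had medians of 0.55, 0.58 and 1.29 at 1, 2 and 4 h. The TCA cycle list had 0.68, 0.62 and 0.97, and the glycogen and trehalose list 0.40, 0.40 and 0.68. The ribosome biogenesis list had -0.36, -0.40 and -0.69. In each of these lists the 1 h and 2 h medians differed by less than 0.1, and the 4 h median lay farther from 0. Taken gene by gene, the median change from 1 h to 2 h was 0.21 for general stress and -0.21 for the TCA cycle. It was 0.05 for glycogen and trehalose and -0.07 for ribosome biogenesis. The hexose transporter list had 0.58, 0.47 and 0.41 in that order, although HXT4 within it had 1.90, 2.27 and 3.93. Replicate 1 of ethanol at 1 h stood apart, as given above, and every 1 h median here includes it. In the 1 h libraries, replicate 1 first, HXT3 had 2368 and 996 CPM and HXT1 had 1015 and 482 CPM. The part of that library in the course from 1 h to 2 h was not tested.

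**Figure D5:**
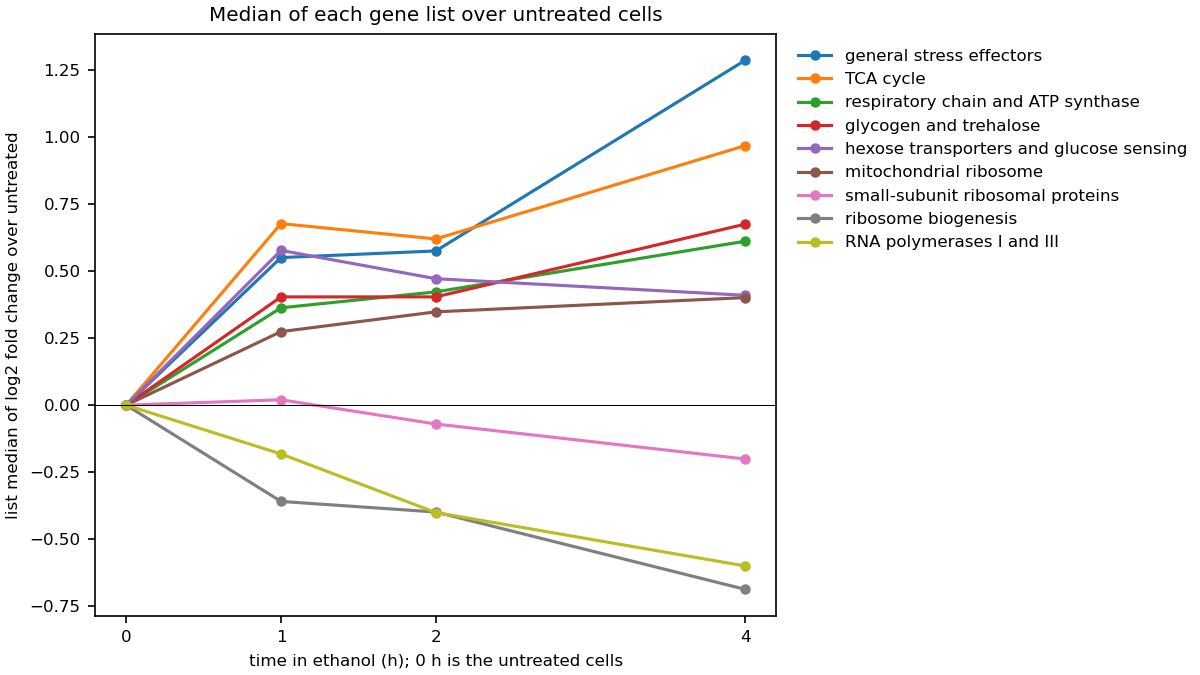
Median log2 fold change over untreated cells (y axis) of 9 gene lists at 1, 2 and 4 h of ethanol (x axis, hours), with 0 h set to 0 as the untreated cells; all points share the untreated libraries. The general stress list goes to 1.29 at 4 h after 0.58 at 2 h, and the ribosome biogenesis list goes to -0.69 after -0.40.

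Cells given estradiol for the same 2 h, in the same solvent, were set against the ethanol 2 h cells for the named genes. Replicate 2 of the estradiol 2 h pair stood apart, as given above, and no fit of this comparison left it out. edgeR called 57 genes higher and 23 lower in estradiol 2 h cells relative to ethanol 2 h cells, 0.899% and 0.363% of genes and 1.26% in all. Neither HXK1 nor GSY2 was among them. HXK1 had 64.1 and 129 CPM in estradiol 2 h libraries and 46.4 and 72.3 CPM in ethanol 2 h libraries (0.69, SE 0.36, adjusted p = 0.917). GSY2 had 66.0 and 68.8 CPM in estradiol 2 h libraries and 57.8 and 54.9 CPM in ethanol 2 h libraries (0.26, SE 0.17). YBR032W had 3.69 and 4.72 CPM in estradiol 2 h libraries and 3.79 and 4.40 CPM in ethanol 2 h libraries (0.02, SE 0.27). Other genes that stood high at 2 h of ethanol did differ. CWP1 rose further with estradiol, to 202 and 732 CPM against 46.4 and 78.6 CPM in ethanol 2 h libraries (2.90, SE 0.58, adjusted p = 0.0333). YGP1 fell to 12.3 and 11.4 CPM with estradiol, against 49.5 and 62.9 CPM in ethanol 2 h libraries (-2.25, SE 0.24, adjusted p = 0.000517). SWI4, the induced gene, stood at 1405 and 908 CPM in estradiol 2 h libraries and 15.6 and 15.5 CPM in ethanol 2 h libraries.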

How the data were processed

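The deposited table holds raw whole-number read counts per reading frame, 1 column per library. Per the labels, poly-A RNA was sequenced. Bowtie2 2.2.5 is the aligner that the submitters' processing notes name. How reads were counted, with what strand setting and on which genome build, was not stated there. Symbols came from the R64 gene table, which matched 5999 of 6670 identifiers; 542 of the 671 others were tested. Upstream windows of 500 bases before the start codon were read from the R64 genome.

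Testing used edgeR 4.0.16 under R 4.3.3, with TMM scaling, filterByExpr with a minimum count of 10, and a robust quasi-likelihood model with 1 coefficient per group on 14 libraries (7 residual degrees of freedom, common biological coefficient of variation 0.206). Tests were 2-sided. Each SE was obtained from the F statistic, as the size of the log2 fold change over its root. Recovery was checked on simulated counts.

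Named were 12 fixed genes, the 12 highest and 12 lowest genes with a log2 CPM of at least 3, no overlap between groups and, where not called, an unadjusted p under 0.05, and called list members. In the highest and lowest sets called genes came first, whatever their size, and the rest followed by size of change. YBR032W, EDS1 and further members of lists were named after their values were seen. The 46 lists, the members and the comparisons were chosen with earlier results of these data known. 2 list symbols, LYP1 and CAN1, are not analysed here.

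Alternatives were RLE factors, library totals, other filters, a replicate block, only the libraries compared, DESeq2 1.42.0, thinning and leaving out each of the 4 libraries compared. Added after seeing the data were 1 surrogate variable (sva 3.50.0), the 8 untreated and ethanol libraries, omission of unmatched identifiers, and omission of ethanol 1 h replicate 1.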

Additional observations from a re-analysis of the deposited data

How the results depend on the processing

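The count of genes called in ethanol 2 h against untreated cells, 3 by edgeR on all libraries, was 255 with only the libraries compared, 161 with 1 surrogate variable, 40 with DESeq2, 5 with the replicate block, 1 with thinned counts, 1 with the 8 untreated and ethanol libraries, and 0 in each fit that left out a library (0 to 0). The cause was not tested. RLE factors, no filter on low counts and omission of unmatched identifiers left 3; a mean CPM of at least 10 left 2, and library totals called 2, HXK1 and HXT4. For ethanol 2 h against 1 h, 0 calls became 1 without a filter, 1 with only the libraries compared and 1 with DESeq2. For 4 h against 2 h they became 6 with only the libraries compared and 8 with DESeq2. For 1 h against untreated they became 1 with library totals, which moved the median of all genes to -0.21, and 22 with DESeq2. For 4 h against untreated, 110 became 175 with the replicate block, 853 with only the libraries compared and 484 with DESeq2, and library totals gave 90 higher and 4 lower in place of 92 and 18. For estradiol against ethanol at 2 h, 80 became 40 with only the libraries compared and 149 with DESeq2, and library totals gave 52 higher and 35 lower in place of 57 and 23. Same-numbered libraries deviated together with a correlation over 0.1 in 11 of 21 pairs of groups, but with -0.27 for ethanol 2 h and untreated cells, so the replicate number was not taken as a pairing of those groups; over all pairs it ran between -0.69 and 0.74.

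Over 36 named genes and their settings, 488 values kept direction and side of the threshold, 50 newly passed, 21 no longer passed and 10 changed sign. Sign changes were CLN2 (0.061 with the surrogate variable; -0.25 to 0.15 leaving out 1 library), CLN3 (-0.0020 thinned; -0.050 to 0.20 leaving out 1 library), MFA1 (-0.029 with the surrogate variable; -0.066 to 0.15), ADH2 (-0.034 to 0.93, lowest without ethanol 2 h replicate 2) and PHO84 (-0.026 with the surrogate variable). Of the 46 list medians, 30 kept 1 sign in every setting, among them TCA cycle (0.42 to 0.72) and ribosome biogenesis (-0.52 to -0.31). Depth limits YBR032W, HSP12 and the mitochondrially encoded genes, whose levels rest on few counts.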

Other observations

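Some genes outside the lists and outside the naming rule stood out by small p-values at 2 h and are given as values chosen after they were seen; none was called by edgeR on all libraries. GPP2, a glycerol phosphatase gene, had 91.9 and 96.6 CPM in ethanol 2 h libraries and 31.2 and 35.5 CPM in untreated libraries (log2 fold change 1.497, SE 0.30). VID24, which acts in the breakdown of gluconeogenic enzymes when glucose returns, had 50.7 and 56.8 CPM in ethanol 2 h libraries and 25.5 and 20.3 CPM in untreated libraries (1.23, SE 0.23). STF2, a small protein gene tied to ATP synthase and to survival of drying, had 39.9 and 37.3 CPM in ethanol 2 h libraries and 17.1 and 18.2 CPM in untreated libraries (1.13, SE 0.25). The genes of aromatic amino acid breakdown, ARO9 and ARO10, ran together: ARO9 had 44.7 and 51.8 CPM in ethanol 2 h libraries and 23.9 and 24.5 CPM in untreated libraries, and ARO10 had 54.5 and 61.0 CPM in ethanol 2 h libraries and 28.8 and 27.0 CPM in untreated libraries.

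Transcripts encoded in mitochondrial DNA were near the floor of these poly-A libraries. The 6 tested summed to 4.80 and 18.2 CPM in ethanol 2 h libraries and 17.2 and 15.0 CPM in untreated libraries, and COX2 was at 0 in ethanol 2 h replicate 1.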
